A study of Arabidopsis thaliana with 8 samples.

Results

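The 6 genes described here are the 9-cis-epoxycarotenoid dioxygenase genes NCED2 (AT4G18350), NCED3 (AT3G14440), NCED5 (AT1G30100), NCED6 (AT3G24220) and NCED9 (AT1G78390) of Arabidopsis thaliana and their relative CCD4 (AT4G19170, listed as NCED4 in the gene table). They are 6 of 27444 nuclear protein-coding genes. The family was chosen by the H2B peak lists, in which NCED3 stands at a strong peak, so the H2B values of these genes are given as a description and carry no test. NCED enzymes cut 9-cis-epoxycarotenoids in the plastid to xanthoxin, the first committed and usually the limiting step of abscisic acid synthesis. Abscisic acid closes stomata under drought and keeps seeds dormant. NCED3 is the member best known for induction by water deficit, NCED6 and NCED9 act mainly in developing seeds, NCED5 contributes to both, and the role of NCED2 is less well defined. CCD4 belongs to the same enzyme superfamily and degrades carotenoids to apocarotenoids instead of making the hormone precursor.

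Chromatin immunoprecipitation followed by sequencing was done on whole seedlings 7 days after germination, grown in long days on sucrose-containing medium. In the H2B line, wild-type Col-0 carried p35S::AtH2B-GFP, a histone H2B joined to green fluorescent protein and driven by the viral 35S promoter, beside the plant's own H2B genes. In the GBPL3 line, the mutant gbpl3-5 carried the large GTPase AtGBPL3 with the same tag, expressed from its own promoter (line comp2). Both were pulled down with GFP-Trap agarose, and each line gave 2 pulldowns and 2 inputs, 8 samples in all. Separate cultures for the 2 replicates of a line are not stated, so the spread between them may be technical. The inputs were not analysed here.

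A peak is an interval in which the authors' caller found more fragments than in the local background. Its fold enrichment is the ratio of its summit to that background, and its −log10 q measures the evidence within that library. H2B is part of nearly every nucleosome, so an interval marks a local excess of the tagged histone, and a gene outside the list is not a gene without H2B. On the nuclear chromosomes replicate 1 held 1361 intervals and replicate 2 held 8608, a ratio of 6.32, with median folds of 1.88 and 1.76. Read depth is unknown, and its part in the difference between the lists was not tested. The samples are whole seedlings, so a state found in a small group of cells cannot be told apart from a weaker state found in most.

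All 6 genes had an H2B interval in replicate 2, and 2 of them, NCED3 and NCED2, also had one in replicate 1. Over all protein-coding genes, 34.8% had an interval in the body or within 1 kb in replicate 2, 5.99% in replicate 1 and 4.84% in both. Nothing is read from these shares, because the H2B lists served to choose the genes. The 6 genes held 12 intervals, 3 in replicate 1 and 9 in replicate 2. Each of the 12 lay wholly inside the body of its gene, and none lay in the 1 kb on either side. No other gene of the table lay beneath any of the 12. Over the whole lists, 84.9% of intervals touched a protein-coding gene in replicate 1 and 94.0% in replicate 2. Of those that did, 94.0% and 94.3% lay wholly inside at least 1 such gene, so this position was the common one. Over all protein-coding genes, 4.07% had the body touched in replicate 1, 25.2% in replicate 2 and 3.13% in both.

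**Figure D1:**
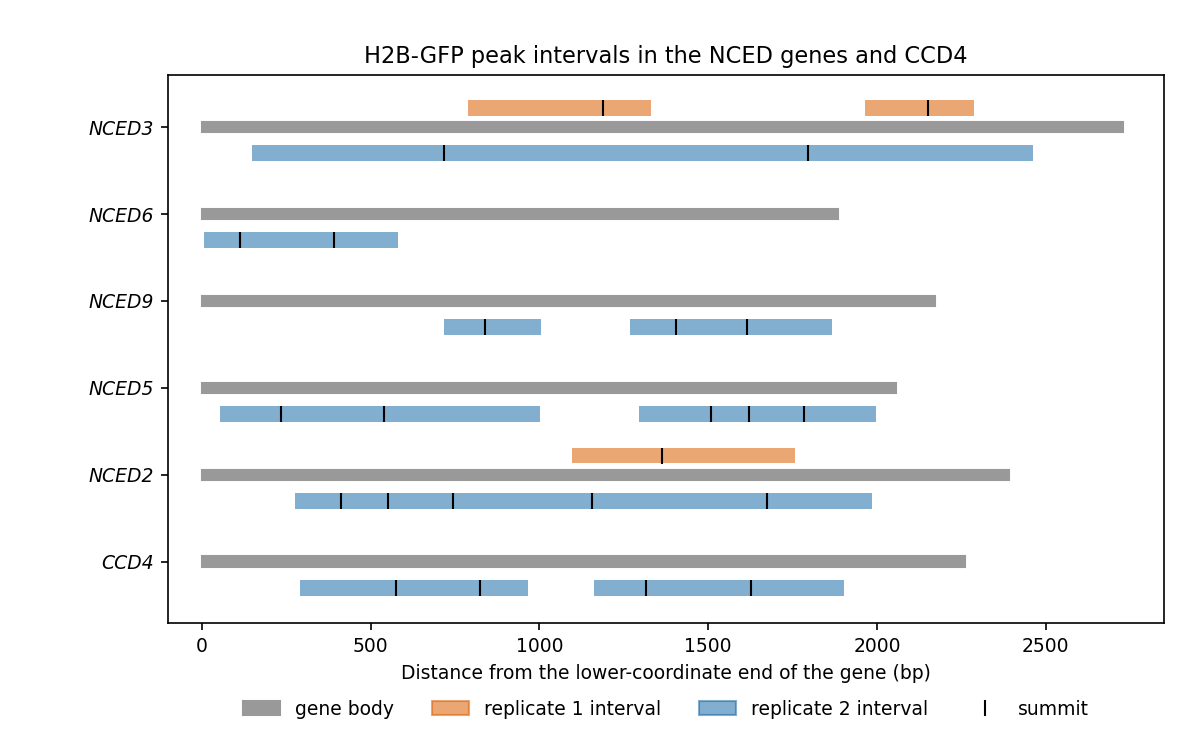
Position of each H2B-GFP interval and summit along the 6 genes, in bp from the end of the gene with the lower coordinate (the gene table holds no strand); grey bars are gene bodies, orange bars replicate 1 and blue bars replicate 2. NCED3 and NCED2 carry intervals of both replicates, and every replicate 1 interval lies within a replicate 2 interval.

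NCED3, the drought-induced member, had the highest fold of the family in each replicate and, in replicate 2, the widest interval. In replicate 2 a single interval on chromosome 3 (4831436 to 4833748, TAIR10) was 2313 bp wide and covered 84.7% of the gene. Its fold was 2.38 and its −log10 q was 8.63, with summits at 4832004 and 4833083. Only 8 of the 8608 intervals of that list were wider, and its fold ranked 149. Replicate 1 had 2 narrower intervals within this span, 632 bp apart, and together they covered 31.7% of the gene. The first (4832074 to 4832617, 544 bp) had a fold of 2.09, a −log10 q of 4.11 and its summit at 4832475. The second (4833250 to 4833571, 322 bp) had a fold of 2.56, a −log10 q of 7.02 and its summit at 4833437, and its fold ranked 23 of 1361. NCED3 thus stood near the 98.3rd percentile of fold in each list taken alone. The summits themselves did not coincide, lying 471 and 354 bp from the nearest summit of the other replicate. The highest fold was 2.47 ± 0.127 (mean and SD, n = 2), a value set across lists that are not on a common scale. This mean also joins different places, since the 2.56 of replicate 1 was at 4833437 and the 2.38 of replicate 2 at 4832004. At 4833083, the replicate 2 summit nearest to 4833437, the fold was 2.15. Among the 815 regions called in both replicates, ranked by mean fold, the NCED3 region came 34th, and by width it came 11th.

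NCED2 was the other gene with an interval in both lists. The replicate 1 interval on chromosome 4 (10143352 to 10144012, 661 bp) had a fold of 2.29 and a −log10 q of 4.71, ranking 78 of 1361 by fold. Replicate 2 enclosed it in an interval of 1708 bp (10142532 to 10144239) with 5 summits, a highest fold of 1.93 and a −log10 q of 4.22, covering 71.4% of the gene. By width that interval was among the 62 widest of its list, while by fold it ranked only 1798 of 8608. The replicate 1 summit (10143619) lay 209 bp from the nearest replicate 2 summit. The highest fold of NCED2 was 2.11 ± 0.250 (mean and SD, n = 2), and its region ranked 148 of 815 by mean fold. Here too the places differed, since the 1.93 of replicate 2 was at 10143930. At 10143410, the replicate 2 summit nearest to that of replicate 1, the fold was 1.76. NCED2 therefore resembled NCED3 in width and in presence in both lists, and stood lower in fold. Its call in both lists was lost at a −log10 q of at least 5, where NCED3 was the only one of the 6 still called in both.

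Both seed-type genes were absent from the replicate 1 list. NCED9 had 2 replicate 2 intervals on chromosome 1, 264 bp apart, that covered 40.9% of the gene. The larger (29491974 to 29492572, 599 bp) had a fold of 2.10 and a −log10 q of 5.52, above 91.7% of the list by fold. The smaller (29491421 to 29491709, 289 bp) had a fold of 1.46 and a −log10 q of 1.45, among the weakest of the list. NCED6 had a single interval on chromosome 3 (8761426 to 8761998, 573 bp) with a fold of 1.61 and a −log10 q of 1.67, above 19.9% of the list by fold, and 30.4% of the gene was covered. This interval began 7 bp inside the end of the gene with the lower coordinate and was the only one of NCED6. It was lost when a −log10 q of at least 2 was required, as the only call among the 6 genes that was. The nearest replicate 1 interval lay 89.5 kb from NCED9 and 97.8 kb from NCED6.

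NCED5, which acts in seeds and under stress, and CCD4 were likewise found in replicate 2 only. NCED5 held 2 intervals on chromosome 1 that left a gap of 294 bp and covered 80.2% of the gene. The first (10571363 to 10572311, 949 bp) had a fold of 2.07 and a −log10 q of 4.71, and the second (10572606 to 10573305, 700 bp) had a fold of 1.69 and a −log10 q of 2.04. CCD4 held 2 intervals on chromosome 4, 196 bp apart, that covered 62.6% of the gene. The one from 10481909 to 10482584 (676 bp) had a fold of 2.06 and a −log10 q of 5.71, and the one from 10482781 to 10483520 (740 bp) had a fold of 2.26 and a −log10 q of 7.43. The nearest replicate 1 interval lay 44.5 kb from NCED5 and 8.12 kb from CCD4. A further replicate 2 interval (10485831 to 10486126, fold 1.56) lay 1952 bp beyond CCD4 and was not counted with it.

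**Figure D2:**
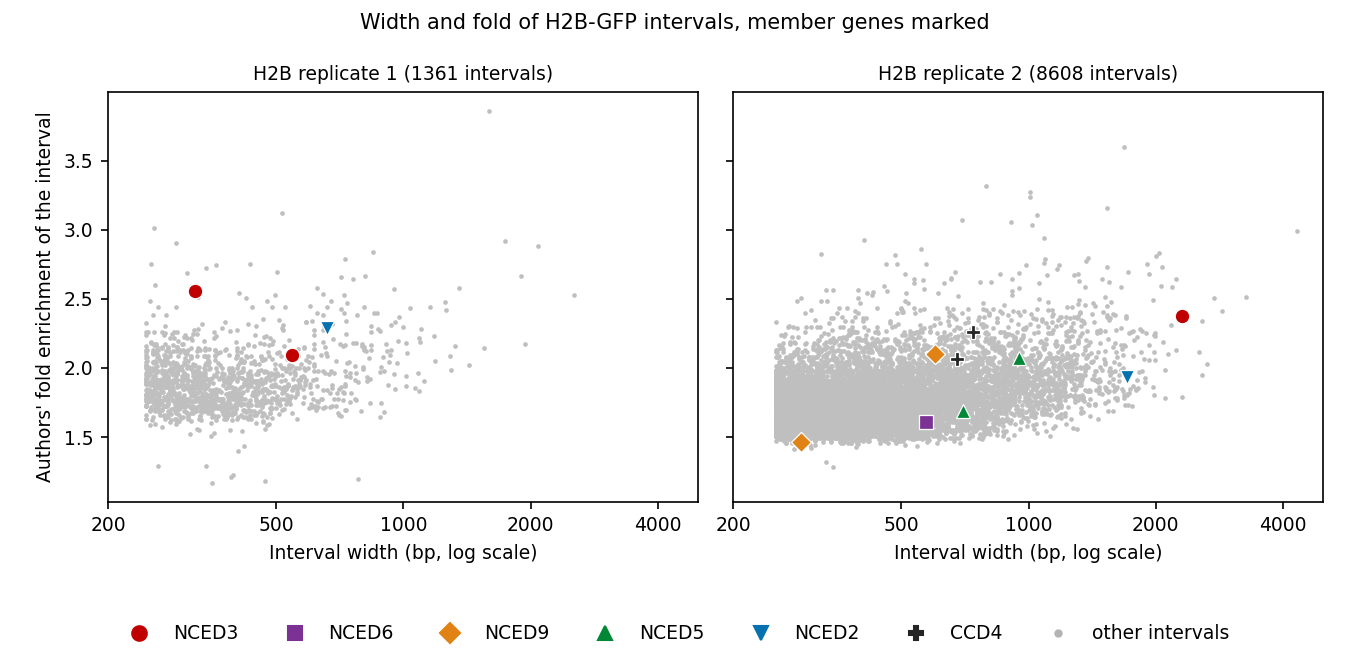
Width (bp, log scale) and authors' fold of every H2B-GFP interval, replicate 1 on the left and replicate 2 on the right; grey points are all intervals and coloured symbols those of the 6 genes. In replicate 2 the NCED3 interval (2313 bp, fold 2.38) lies at the upper right, while the NCED6 interval (573 bp, fold 1.61) lies inside the mass of the list.

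The stress gene and the seed genes can be set side by side within replicate 2, where all 6 were called. By highest fold the order was NCED3 (2.38), CCD4 (2.26), NCED9 (2.10), NCED5 (2.07), NCED2 (1.93) and NCED6 (1.61), and by −log10 q it was the same. The steps down this order were 0.113, 0.161, 0.0312, 0.138 and 0.328. Of these genes 4 have a value in 1 list only, so whether neighbours in the order differ beyond the spread between replicates cannot be judged. The order by covered share was different in the middle, running NCED3, NCED5, NCED2, CCD4, NCED9 and NCED6. In replicate 2 NCED3 led and NCED6 came last by each of the 3 measures, which were all taken from the same intervals. NCED9, the other seed gene, lay close to NCED5 in fold and below it in coverage. With 1 stress gene and 2 seed genes, chosen with these values known, no test of the classes was made.

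The reach of the replicate 2 intervals along the gene, a value from the lists that chose the family, ranged from 30.4% in NCED6 to 84.7% in NCED3. The 6 genes had a median covered share of 67.0% in that list. For the 6915 protein-coding genes touched in replicate 2 the median was 22.2%, and for the 1993 of them as long as the 6 genes (1885 to 2730 bp) it was 22.4%. NCED3 lay above 99.6% of those length-matched genes, NCED5 above 99.3%, NCED2 above 97.9% and CCD4 above 95.4%. The seed genes NCED9 and NCED6 lay lower, above 81.6% and 67.1%. In replicate 1 the covered share was 31.7% for NCED3 and 27.6% for NCED2, and the other 4 genes had none.

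**Figure D3:**
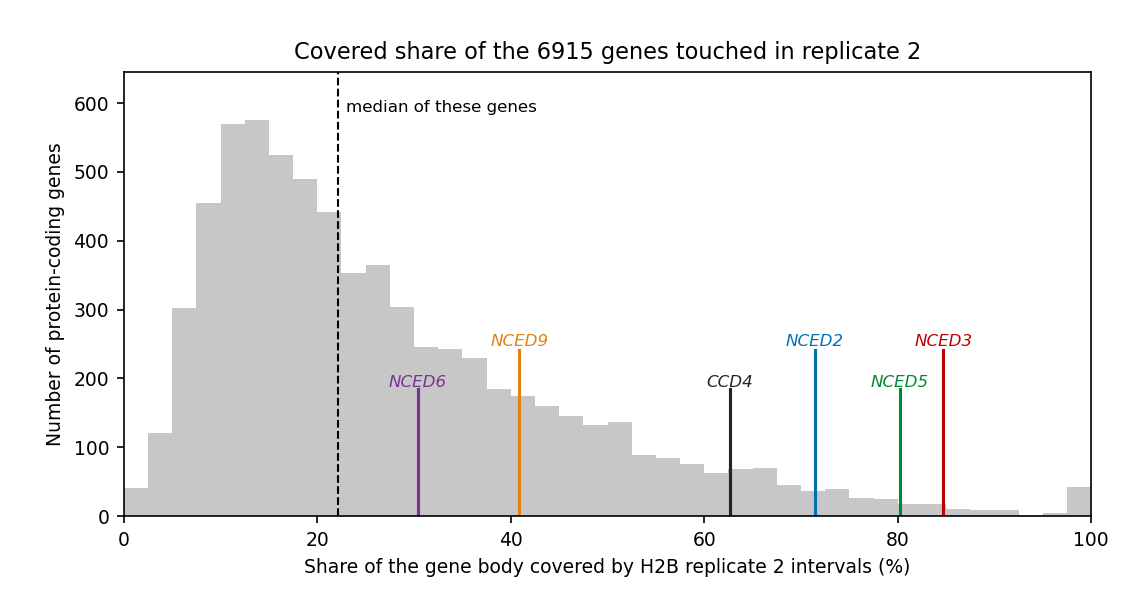
Share of the gene body covered by H2B-GFP replicate 2 intervals (%) for the 6915 protein-coding genes touched in that list, as a histogram of gene numbers, with the 6 genes marked. The dashed median is 22.2%; NCED6 (30.4%) and NCED9 (40.9%) lie nearest to it, and NCED5 (80.2%) and NCED3 (84.7%) in the right tail.

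Which genes were called also moved with their length. In replicate 2 the share of protein-coding genes with an interval in the body or within 1 kb was 16.8% for genes of up to 500 bp, 37.9% for genes of 2001 to 2500 bp and 48.1% for genes above 5000 bp. Among the 6906 genes from 1885 to 2730 bp it was 38.1% in replicate 2, 6.44% in replicate 1 and 5.17% in both. The lengths of the 6 genes (median 2216 bp) were close to the median of all protein-coding genes, 2078 bp.

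**Figure D4:**
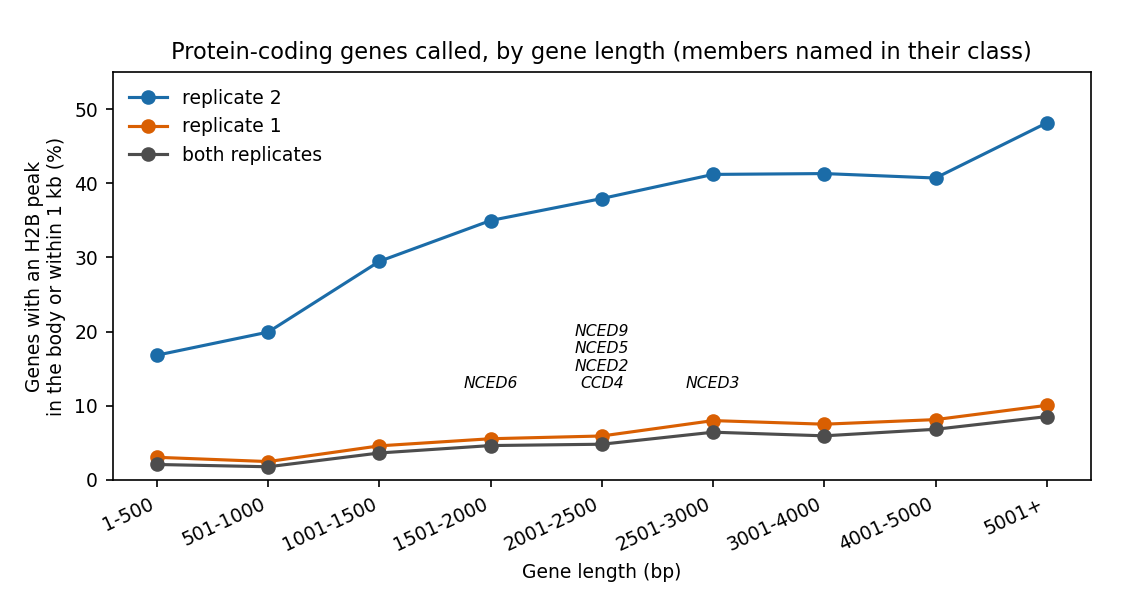
Percentage of nuclear protein-coding genes with an H2B-GFP interval in the body or within 1 kb, by class of gene length (bp), for each replicate and for both; the names of the 6 genes are written above their class. In replicate 2 the share is 16.8% in the shortest class and 48.1% in the longest, with little difference between the classes from 2501 to 5000 bp.

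A feature that the choice of genes did not use was their spacing from other genes. The nearest annotated gene lay 8369 bp from NCED5, 6372 bp from NCED3, 5267 bp from NCED6, 2697 bp from NCED9, 1248 bp from NCED2 and 1236 bp from CCD4. Their median was 3982 bp, against 135 bp for all nuclear protein-coding genes, of which 28.7% overlapped or abutted another gene. Of all these genes 9.61% had a nearest neighbour at 1236 bp or farther. That cutoff is the smallest distance among the 6 genes, so all 6 meet it by construction. On its other side NCED3 had 15523 bp to the next gene, the widest such gap of the 6. Of the 2638 genes with no neighbour nearer than 1236 bp, 26.0% had their body touched by an interval in replicate 2 and 4.89% in replicate 1. These shares were close to those of all protein-coding genes given above. The median covered share of those touched in replicate 2 was 27.8%.

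Whether a replicate 2 interval was found again in replicate 1 went with its width and fold over the whole list. Of the 8608 intervals, 9.61% overlapped a replicate 1 interval. The share was 5.05% of those under 500 bp, 12.1% of those from 500 to under 1000 bp, 30.7% from 1000 to under 1500 bp and 56.4% of the 133 intervals of 1500 bp or more. A wide interval has more bases in which an overlap can fall, and the part of this in the shares was not tested. By fold the share was 5.51% below the median of the list, 10.1% from there to a fold of 2.07 and 28.1% of the 864 intervals at or above that fold. The replicate 2 intervals of NCED3 and NCED2 belonged to the widest class and were both found again, although NCED2 was not in the highest fold class. CCD4, NCED9 and NCED5 each had an interval in the highest fold class that was not found again, and NCED6 had none in either class.

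The other genes of the hormone's pathway formed a list of 60, written with earlier results of these data known. An interval lay in the body or within 1 kb of 31 of the 60 (51.7%) in replicate 2 and of 3 (5.00%) in replicate 1, the latter close to the 5.99% of all protein-coding genes. Their median length was 2500 bp, above the 2078 bp of all protein-coding genes, and the difference in replicate 2 from the 34.8% of all genes was not tested. The median of the highest folds of the 31 was 1.75, and that of the 6 genes was 2.09. Nothing is read from this difference, because the H2B lists served to choose the 6 genes. CCD7 and CCD8, the dioxygenases of strigolactone synthesis, had replicate 2 intervals with folds of 1.91 and 1.90 over 10.4% and 10.3% of the gene. CCD1, the cytosolic dioxygenase of the superfamily, had none. Over the 30 of the 60 genes whose body was touched in replicate 2 the covered share ranged from 4.12 to 67.3%, with a median of 23.8%, and it was above the 30.4% of NCED6 in 10. The highest shares were those of the phosphatase gene HAI1 (67.3%) and of the receptor genes PYL13 (63.6%), PYL3 (56.8%) and PYL2 (51.1%), within the range of the 6 genes. HAI1 was 2536 bp long. PYL13 (495 bp), PYL3 (986 bp) and PYL2 (1285 bp) were shorter than any of the 6 genes (1885 to 2730 bp). Their intervals were 315, 560 and 657 bp wide, with folds of 1.80, 1.80 and 1.85, so their shares are not length-matched.

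Along the synthesis chain 8 of 12 genes had a replicate 2 interval in the body or within 1 kb, and 7 had the body touched. The share was 34.8% over all protein-coding genes and 41.3% over those of 3001 to 4000 bp. The median length of the 12 genes was 3282.5 bp, and the difference was not tested. Of the 8, 5 were among the 6 genes that supply carotenoids and 1 among the 3 that act on xanthophylls (ABA1, zeaxanthin epoxidase). The other 2 were among the 3 that turn xanthoxin into the hormone (AAO3, abscisic aldehyde oxidase, and ABA3, which activates its cofactor). PSY, phytoene synthase, and ZDS, zeta-carotene desaturase, were listed in both replicates, but not through their own bodies in each. The PSY interval of replicate 1 (chromosome 5, 5658869 to 5659255, fold 1.91) lay 299 bp outside PSY in GSTF12, a glutathione transferase gene, and only the replicate 2 intervals (folds 1.84 and 1.80) lay in PSY. Both ZDS intervals (folds 1.80 and 1.79 in replicates 1 and 2) lay outside it and overlapped the neighbouring gene DRT102. The replicate 2 interval also overlapped AT3G01525, an antisense RNA gene. Genes of breakdown, the CYP707A hydroxylases, had replicate 2 intervals in 2 of 4, and genes of the glucose conjugate in 1 of 2.

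In signalling, 7 of 14 receptor genes of the PYR/PYL family and 7 of 9 genes of the type 2C phosphatases that the receptors inhibit had a replicate 2 interval. For the SnRK2 kinases it was 1 of 3, for the transcription factors 2 of 7 and for the responsive targets 1 of 6. Over all protein-coding genes 34.8% had a replicate 2 interval, and 29.5% of those of 1001 to 1500 bp. The median length of the receptor genes was 1336.5 bp. HAI1, a phosphatase gene itself induced by the hormone, was the only one of the 60 with an interval in its own body in both lists. Its replicate 1 interval (chromosome 5, 23894801 to 23895176) had a fold of 1.74. In replicate 2 it had an interval of 397 bp (23894591 to 23894987, fold 1.72) that overlapped it, and another of 1310 bp (23895621 to 23896930) with a fold of 2.68 and a −log10 q of 10.8 that did not. That fold was above the 2.38 of NCED3 in the same list, as was the 2.41 of the receptor gene PYL5. In replicate 1 the HAI1 fold was below the 2.56 of NCED3, and PYL5 had no interval. These groups hold 2 to 14 genes each, and differences between them were not tested.

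**Figure D5:**
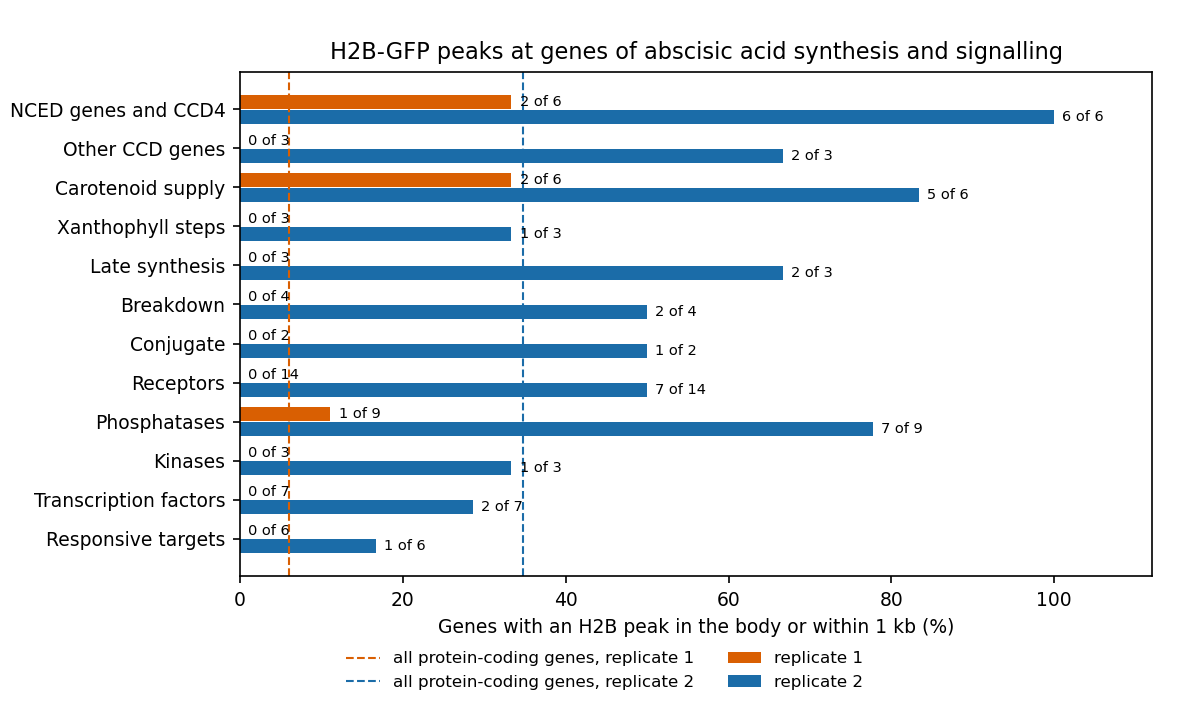
Percentage of genes with an H2B-GFP interval in the body or within 1 kb, by role in abscisic acid synthesis and signalling, for replicate 1 (orange) and replicate 2 (blue), with the number of genes beside each bar. Dashed lines are the shares of all nuclear protein-coding genes, 5.99% and 34.8%; the NCED genes and CCD4 reach 6 of 6 in replicate 2, and the responsive targets 1 of 6.

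None of the 6 genes had a GBPL3 interval in either replicate, and neither did any of the 60 others. GBPL3 intervals were found at 0.0692% of protein-coding genes in replicate 1, 0.109% in replicate 2 and 0.0619% in both, so 0 of 6 is also what genes at the common rate would show. The nearest GBPL3 interval of either replicate lay 347 kb from NCED6, 674 kb from NCED2 and 1013 kb from CCD4. It was farther from NCED3 (3580 kb), NCED5 (4510 kb) and NCED9 (10143 kb). No test of H2B against GBPL3 at these genes was made.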

How the data were processed

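Peak lists of the 4 pulldowns were used. Per the submitters' processing notes, the authors used BWA 0.7.12, MACS2 2.1.0 and the build TAIR10; the sources used here give neither their options nor the control. Peaks were called per sample. Per the deposited values, column 7 holds the fold enrichment (a linear ratio), columns 8 and 9 the −log10 p and −log10 q, column 5 a score of 10 times the −log10 q and column 10 the summit offset; no depth is given. Lines with the same interval were joined, keeping the highest fold and −log10 q. Genes came from a RefSeq table of TAIR10.1, whose name differs from the authors' build, so only peak coordinates are printed, counted from 1. Of the H2B summits, 82.0 to 85.2% (replicate 1) and 91.2 to 93.6% (replicate 2) lay in protein-coding genes on each chromosome. All 66 listed genes matched by identifier and symbol.

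A gene was called when an interval overlapped its body or 1 kb flanks by at least 1 bp. All 6 genes, pathway genes called in both replicates, and the 5 genes nearest NCED3 were to be named; other pathway genes were named after their values were seen. Members and lists were chosen with earlier results of these data known. Overlap calls were checked on 200 simulated intervals (all right). Python 3.11.15, pandas 2.3.3 and NumPy 2.4.6 were used. Counting alternatives were the distance rule, the threshold, the list length and the minimum overlap.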

Additional observations from a re-analysis of the deposited data

How the results depend on the processing

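NCED3 was called in both replicates under each alternative run: gene body only, within 2 kb, highest summit inside the body, −log10 q of at least 2 or 5, at least 50% of the interval inside, and replicate 2 shortened to the length of replicate 1. The family was chosen with NCED3 at a strong peak of these lists, so these calls are no separate support. GBPL3 was recounted by gene body, within 2 kb and by summit, and none of these gave any of the 6 genes an interval. NCED2 left the count for both replicates at a −log10 q of at least 5 (1, 3 and 1 of the 6 genes in replicate 1, replicate 2 and both) and with the shortened list (1 in both). At a −log10 q of at least 5, replicate 2 kept NCED3, CCD4 and the seed gene NCED9, and lost NCED5, NCED2 and NCED6. The shortened replicate 2 list lost NCED2 and NCED6. NCED6 left replicate 2 at a −log10 q of at least 2. A single replicate gave 2 to 6 of the 6 genes and 3 to 31 of the 60 pathway genes. For these 60 the counts in replicate 1 and in both were each 1 by gene body, 5 within 2 kb, 1 by summit and 1 at a −log10 q of at least 2. The gene in both was HAI1 by body, by summit and with the shortened list, and ZDS at the threshold of 2. At a −log10 q of at least 5 they were 0, 3 and 0 in replicate 1, replicate 2 and both, and with the shortened list 6 in replicate 2 and 1 in both. The share of all protein-coding genes called in both was 4.84%, and 3.13% by gene body, 6.93% within 2 kb and 3.01% by summit. It was 2.67% and 0.168% at the stricter thresholds and 2.02% with the shortened list. In replicate 1 it was 5.99%, and 4.07% by gene body, 8.29% within 2 kb, 3.95% by summit, 3.48% and 0.284% at the thresholds. In replicate 2 it was 34.8%, and 4.47% at the strictest threshold and 7.05% with the shortened list. The fold of NCED3 was 2.33 as a mean over summits and 2.09 nearest the gene's middle in replicate 1, and 2.15 there in replicate 2. Fewer intervals remain under the stricter settings by construction; for the other changes the cause was not tested. Requiring overlapping intervals, added after seeing the data, gave 2 of the 6 genes and 2 of the 60. By that rule the share of all protein-coding genes was 3.70%. No paired analysis was possible because the results come from no test across samples: presence in peak lists was described, and the inputs, which share replicate numbers with the pulldowns, were not analysed here. Depth is unknown, which limits any reading of an absent interval.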

Other observations

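The genes most like NCED3 were sought among the 859 protein-coding genes whose body was touched in both replicates, by distance over 4 values (log2 of the highest fold and of the widest interval in each of 2 samples). Nearest was AT5G08670, with folds of 2.45 and 2.59 and widest intervals of 600 and 2180 bp in replicates 1 and 2 (distance 0.215). It was followed by OPS (AT3G09070), which acts in phloem development (folds 1.96 and 2.35, widths 484 and 2263 bp, distance 0.422). The next were emb2734 (AT5G19820, folds 2.19 and 2.12, distance 0.534), AT5G03140 (1.80 and 2.19, distance 0.540) and the receptor-like kinase gene RKF3 (AT2G48010, 1.87 and 2.25, distance 0.541). NCED2 came 10th (distance 0.620). Likeness in 2 peak lists is a description of these libraries.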
